A study of Homo sapiens with 6 samples.

Results

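The Janus kinases (JAK1, JAK2, JAK3 and TYK2) and the signal transducers STAT3, STAT4, STAT5A, STAT5B and STAT6 were examined in NCD-treated breast cancer cells. These 9 genes were matched from Ensembl identifiers by symbol and are 9 of the 63241 genes in the count files. The set was chosen with earlier results of these data known. All 9 were found, and 8 of them were among the 15295 genes with enough counts to be tested. MDA-MB-231 cells, a line of human triple-negative breast cancer labelled as wild type, received for 24 h either 5 μM NCD (nitidine chloride, a plant alkaloid) or 0.1% DMSO, the solvent control. The labels give no DMSO level for the NCD libraries. Each of the 2 groups had 3 RNA-seq libraries, and the comparison asks which transcripts differ after the treatment. The labels do not say whether the libraries came from separate cultures, so the p-values measure only the spread between these libraries, which may be technical. The free-text descriptions of NCD libraries 2 and 3 give other cell line numbers, whereas their cell line field gives MDA-MB-231. All libraries come from 1 cell line at 1 dose and 1 time.

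JAKs are tyrosine kinases that sit on the cytoplasmic tails of cytokine receptors. When a cytokine joins the receptor chains, the JAKs phosphorylate each other, the receptor and the STAT proteins docked there, and the STATs then pair, enter the nucleus and bind DNA. In this way interleukin 6 acts mainly through STAT3, prolactin and growth hormone through JAK2 and STAT5, interferons through JAK1, JAK2 and TYK2, and interleukin 4 through STAT6. RNA levels do not show phosphorylation, which is how this pathway is switched on, and in bulk RNA a lower level cannot be told apart between fewer expressing cells and less RNA per cell.

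The libraries held 18223594 to 21629653 counts. The cell line's markers (VIM, CD44, EGFR and others) were above 5 CPM (counts scaled to library size, with TMM factors) in 8 of 8 cases, with a summed level of 6780 to 7098 CPM in the DMSO libraries and 4251 to 4633 CPM in the NCD libraries. Of 16 markers of blood cells only CD68 reached 5 CPM and 6 had no count in any library, with sums of 85.0 to 95.5 CPM and 91.4 to 101.6 CPM. Luminal breast markers (2 of 8 at 5 CPM, with TFF1 at 0 throughout) summed to 44.6 to 47.5 CPM with DMSO and 71.4 to 75.9 CPM with NCD, and fibroblast and endothelial markers (2 of 9) to 15.7 to 20.5 CPM and 27.4 to 31.3 CPM. The part of these shifts in the results on the JAK and STAT genes was not tested.

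Among the 8 tested genes, JAK1, JAK2, STAT5B and STAT6 fell and STAT5A and TYK2 rose with NCD, while STAT3 and STAT4 did not pass the test. The test was the quasi-likelihood F test of edgeR, adjusted by the Benjamini-Hochberg method over all 15295 genes and passed at an adjusted p below 0.05. The 6 genes past it were 75% of the 8, against 69.3% of all tested genes. The 4 falls stand against 34.1% of all tested genes that were lower, and the 2 rises against 35.3% that were higher. With scaling by library totals, which moved the median of all genes by 0.20, the 6 members past the test were 4 higher (TYK2, STAT5A, STAT3 and STAT4) and 2 lower (JAK1 and JAK2), among 6828 higher and 4168 lower genes in all. With an absolute log2 fold change above 1 also required, JAK1 and JAK2 were lower and STAT5A was higher. These 3 genes were 37.5% of the 8, against 31.0% of all tested genes (17.5% lower and 13.5% higher). The NCD and DMSO libraries did not overlap in 7 of the 8, and they did not overlap in 72.6% of all tested genes. With 8 genes, these shares are too close to the background to be a result about the group, and the results below concern which members moved and by how much. The median log2 fold change was -0.13 over the 8 genes and 0.04 over all tested genes.

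**Figure D1:**
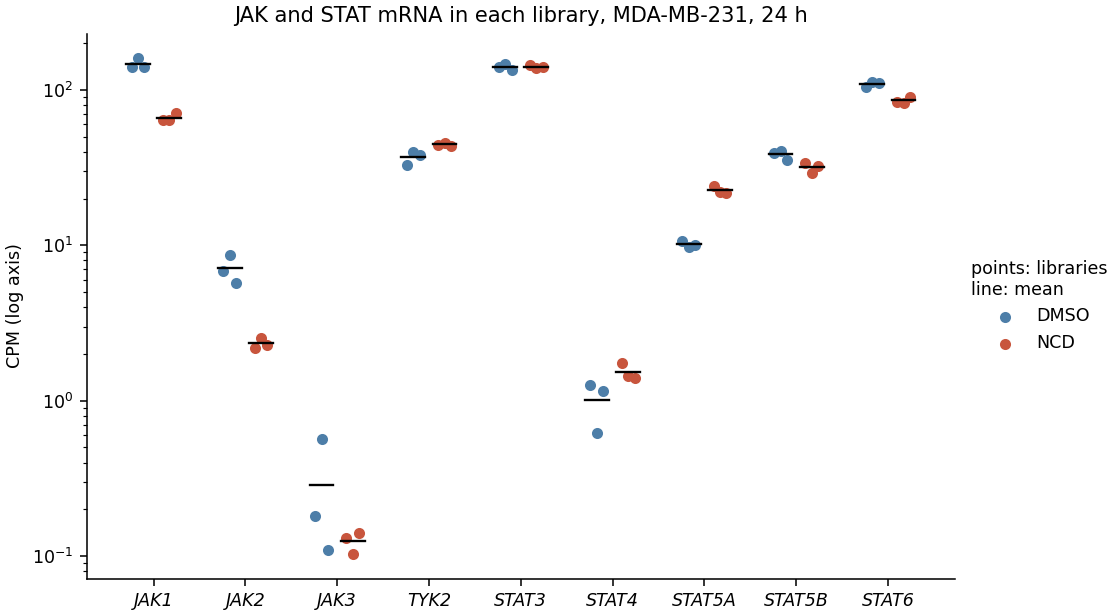
Level of each JAK and STAT gene in the 6 libraries, in CPM on a log axis. Points are libraries (blue DMSO, red NCD) and lines are group means. JAK1 and JAK2 lie lower in all 3 NCD libraries, STAT5A lies higher, the groups of STAT3 overlap, and JAK3 lies near the bottom in both groups.

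To compare genes with each other, CPM was divided by the length of the merged exons in kilobases. The order depends on this choice of length. JAK1 and STAT3 have merged exons of 6317 and 8812 bases but the same longest transcript length, 5047 bases. In CPM their DMSO libraries overlapped. By merged exons JAK1 was highest in the DMSO libraries at 23.2 ± 1.81 CPM per kb (SD, n = 3). STAT3 at 16.0 ± 0.665 and STAT6 at 14.98 ± 0.587 CPM per kb followed, and their libraries overlapped. STAT5B at 5.96 ± 0.387 and TYK2 at 5.45 ± 0.521 CPM per kb also overlapped. STAT5A (1.76 ± 0.0772), JAK2 (1.15 ± 0.242), STAT4 (0.212 ± 0.0717) and JAK3 (0.0419 ± 0.0360 CPM per kb) came last, each separated from the next. Thus JAK1, TYK2, STAT3, STAT5B and STAT6 were the well-expressed members in these cells, JAK2 was a low one, and STAT4 and JAK3, which are known mainly from blood cells, were barely present. Among all tested genes the DMSO level per length of JAK1 was at percentile 85.9, that of JAK2 at 26.1 and that of STAT4 at 6.65.

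By the same measure the order differed in the NCD libraries. STAT6 has merged exons of 7298 bases and a longest transcript of 4034 bases, so its distance from JAK1 depends on the length used. STAT3 led at 16.0 ± 0.320 CPM per kb, followed by STAT6 at 11.7 ± 0.537 and JAK1 at 10.5 ± 0.697 CPM per kb, whose ranges nearly met. TYK2 reached 6.597 ± 0.150 CPM per kb and lay above STAT5B at 4.93 ± 0.392 CPM per kb in every NCD library. STAT5A at 3.94 ± 0.234 CPM per kb stood just under STAT5B. JAK2 at 0.378 ± 0.0293 and STAT4 at 0.320 ± 0.0394 CPM per kb now overlapped, and JAK3 was at 0.0183 ± 0.00279 CPM per kb.

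JAK1 (ENSG00000162434, chromosome 1, 64833229 to 64966504 on the minus strand, GENCODE 29 on GRCh38) encodes the kinase shared by interferon, interleukin 6 family and common gamma chain receptors. Its level was 139, 160 and 141 CPM with DMSO and 63.7, 63.8 and 71.4 CPM with NCD. All 3 NCD libraries were far below the lowest DMSO library. JAK1 fell by a log2 fold change of -1.15 (SE 0.08, 95% interval -1.32 to -0.97), to 0.452 of the DMSO level, with an edgeR adjusted p of 1.77e-06. This interval reaches past the fold threshold of 1, and with scaling by library totals the log2 fold change was -0.95. The end of RAVER2 on the opposite strand overlaps JAK1 by 4 bases.

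JAK2 (ENSG00000096968, chromosome 9, 4984390 to 5128183 on the plus strand) serves the receptors of erythropoietin, prolactin, growth hormone and interferon gamma. With DMSO it had 114, 154 and 105 counts, or 6.87, 8.71 and 5.76 CPM. With NCD it had 50, 49 and 49 counts, or 2.18, 2.54 and 2.28 CPM. The groups were apart by a wide margin, and most of the spread was among the DMSO libraries. JAK2 fell by a log2 fold change of -1.61 (SE 0.19, 95% interval -2.04 to -1.18), to 0.328 of the DMSO level, with an edgeR adjusted p of 6.2e-05. It was the largest change of the 8 genes. The intervals of JAK1 and JAK2 overlapped, and the JAK1 to JAK2 ratio is given below.

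TYK2 (ENSG00000105397, chromosome 19, 10350529 to 10380676 on the minus strand) works with JAK1 or JAK2 at the receptors of type I interferons, interleukin 12 and interleukin 23. Its level was 32.96, 39.8 and 38.0 CPM with DMSO and 44.5, 45.8 and 43.8 CPM with NCD. The groups did not overlap, with DMSO library 1 lowest. TYK2 rose by a log2 fold change of 0.28 (SE 0.08, 95% interval 0.08 to 0.47), a fold of 1.21, with an edgeR adjusted p of 0.0163. The call did not hold without DMSO library 1 (0.17, adjusted p = 0.0900), DMSO library 3 (0.27, 0.0566), NCD library 1 (0.26, 0.0584) or NCD library 2 (0.26, 0.0542), nor with ribosomal protein genes as the reference (adjusted p = 0.270).

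JAK3 (ENSG00000105639, chromosome 19, 17824780 to 17848071 on the minus strand), the kinase of the common gamma chain in lymphocytes, had 3, 10 and 2 counts with DMSO and about 3, 2 and 3 with NCD. It was too low to be tested. The totals were 15 and 8 counts, a ratio of 0.440 after allowing for library size, with an exact 95% interval of 0.162 to 1.11 that covers counting error only. A difference in JAK3 was not detectable at this depth.

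**Figure D2:**
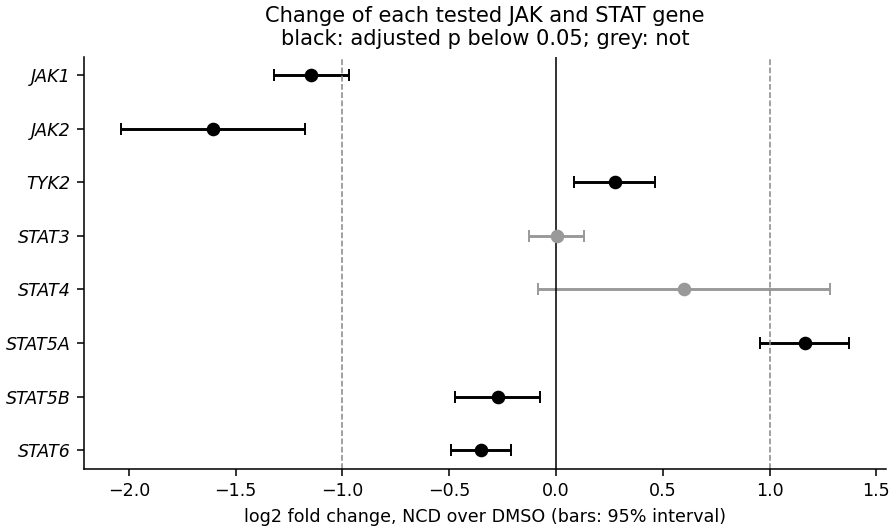
Log2 fold change, NCD over DMSO, of the 8 tested genes with 95% intervals. Black marks genes past an adjusted p of 0.05, grey those not past it, and dashed lines the fold threshold. JAK1 at -1.15 and JAK2 at -1.61 lie on the left, STAT5A at 1.16 on the right, and STAT3 at zero with a narrow interval.

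STAT3 (ENSG00000168610, chromosome 17, 42313324 to 42388568 on the minus strand) transmits interleukin 6, oncostatin M and leptin signals and is often found active in breast tumors. Its level was 141, 146 and 135 CPM with DMSO and 144, 139 and 141 CPM with NCD. The NCD values lay inside the DMSO range. The log2 fold change was 0.00 (SE 0.06, 95% interval -0.13 to 0.13), so the interval of the fold ran from 0.917 to 1.10, and the edgeR adjusted p was 0.959. With library totals it was 0.20 (adjusted p = 0.0113), which equals the shift of all genes under that scaling, and with DESeq2 it was -0.02 (adjusted p = 0.855). With TMM scaling the level of STAT3 thus differed little, and the kinases JAK1 and JAK2 were at 0.452 and 0.328 of their DMSO level.

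STAT6 (ENSG00000166888, chromosome 12, 57095408 to 57132139 on the minus strand), the factor of interleukin 4 and interleukin 13, had 105, 113 and 111 CPM with DMSO and 84.0, 82.8 and 90.1 CPM with NCD. Each NCD library was below each DMSO library. STAT6 fell by a log2 fold change of -0.35 (SE 0.06, 95% interval -0.49 to -0.21), a fold of 0.783, with an edgeR adjusted p of 0.000813. The adjusted p was 0.0770 with library totals (log2 fold change -0.15) and 0.0952 with the ribosomal protein reference (-0.36). With the gene ends given above, STAT6 overlaps LRP1 by 3647 bases and NAB2 by 69 bases, both on the opposite strand. LRP1 and NAB2 had up to 296 and 706 counts in a library. The strand setting of the counting is not given in the sources used here.

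STAT4 (ENSG00000138378, chromosome 2, 191029576 to 191151596 on the minus strand), which answers interleukin 12 in T and NK cells, had 21, 11 and 21 counts with DMSO and 40, 28 and 30 counts with NCD. In CPM these were 1.27, 0.622 and 1.15 against 1.75, 1.45 and 1.40. The groups did not overlap, but the log2 fold change of 0.60 (SE 0.30, 95% interval -0.09 to 1.28) missed the threshold with an edgeR adjusted p of 0.105. Library totals gave 0.80 (adjusted p = 0.0370), and without DMSO library 2, the lowest, it was 0.34.

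STAT5A (ENSG00000126561, chromosome 17, 42287547 to 42311943 on the plus strand) and STAT5B (ENSG00000173757, chromosome 17, 42199168 to 42276707 on the minus strand) are closely related factors of the prolactin, growth hormone and interleukin 2 receptors. The pair lies beside STAT3, with 10.8 kb between STAT5B and STAT5A and 1.38 kb between STAT5A and STAT3. Their coding sequences are identical at 88.9% of 2345 aligned bases, and the longest run without a difference has 429 bases and spans exons 6 to 9. The stretches below are shown because they limit how well reads can be told apart between these genes. The first, of 150 bases from exon 8, is the same in both, so a read from within it could come from either. The second, of 63 bases from exon 9, has a single difference, in capitals. All are written from 5′ to 3′ on the coding strand.
STAT5A exon 8, chr17:42300715-42300864, plus strand: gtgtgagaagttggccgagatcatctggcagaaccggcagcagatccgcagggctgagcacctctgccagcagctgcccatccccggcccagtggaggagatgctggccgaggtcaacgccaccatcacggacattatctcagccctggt
STAT5B exon 8, chr17:42218729-42218878, minus strand: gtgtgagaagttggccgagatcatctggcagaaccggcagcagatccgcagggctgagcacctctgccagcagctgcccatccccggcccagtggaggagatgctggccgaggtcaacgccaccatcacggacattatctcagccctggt
STAT5A exon 9, chr17:42301275-42301337, plus strand: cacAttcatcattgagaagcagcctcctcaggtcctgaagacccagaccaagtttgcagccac
STAT5B exon 9, chr17:42218268-42218330, minus strand: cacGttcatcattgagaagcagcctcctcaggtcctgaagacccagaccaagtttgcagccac
Of all stretches of 75 bases in the STAT5A exons, 7.06% also occur in another gene, which is always STAT5B. Of those in STAT5B, 6.55% also occur in another gene, STAT5A above all. RSEM divides such reads between the genes by estimate, and the counts of this pair are not whole numbers.

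The expected counts of STAT5A were 176.03, 172.23 and 183.38 with DMSO and 554.10, 428.39 and 465.15 with NCD. In CPM these were 10.6, 9.73 and 10.0 against 24.2, 22.1 and 21.7. The DMSO libraries were tight and every NCD library was more than 2 times as high. STAT5A rose by a log2 fold change of 1.16 (SE 0.09, 95% interval 0.95 to 1.37), a fold of 2.24, with an edgeR adjusted p of 4.65e-06. This was the only rise past the fold threshold among the 8 genes.

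STAT5B was at 39.3, 40.4 and 35.6 CPM with DMSO and 34.1, 29.1 and 32.2 CPM with NCD. The groups came close but did not overlap. STAT5B fell by a log2 fold change of -0.27 (SE 0.09, 95% interval -0.47 to -0.07), a fold of 0.828, with an edgeR adjusted p of 0.0201. The call did not hold without DMSO library 2 (-0.24, adjusted p = 0.0556) or NCD library 2 (-0.21, 0.0852), with library totals (-0.08, 0.467) or with the ribosomal protein reference (-0.28, 0.209). The neighbouring paralogs therefore went in opposite directions in the main test, with the larger change in STAT5A.

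The ratio of the pair does not depend on scaling between libraries. Per length, STAT5A over STAT5B was 0.303, 0.270 and 0.316 with DMSO and 0.796, 0.855 and 0.754 with NCD. STAT5A thus came close to STAT5B in level. The log2 ratio differed by 1.44, and the exact two-sided permutation p of 0.1 is the smallest that 3 against 3 libraries allow. In all 4 such ratios were computed, chosen after their values were seen, and each had an exact permutation p of 0.1 before and after Benjamini-Hochberg adjustment. JAK1 over TYK2 was between 3.97 and 4.54 with DMSO and between 1.495 and 1.75 with NCD. JAK1 over JAK2 was between 17.9 and 23.9 with DMSO and between 24.6 and 30.5 with NCD, and STAT3 over STAT5B between 2.63 and 2.77 and between 3.09 and 3.49.

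**Figure D3:**
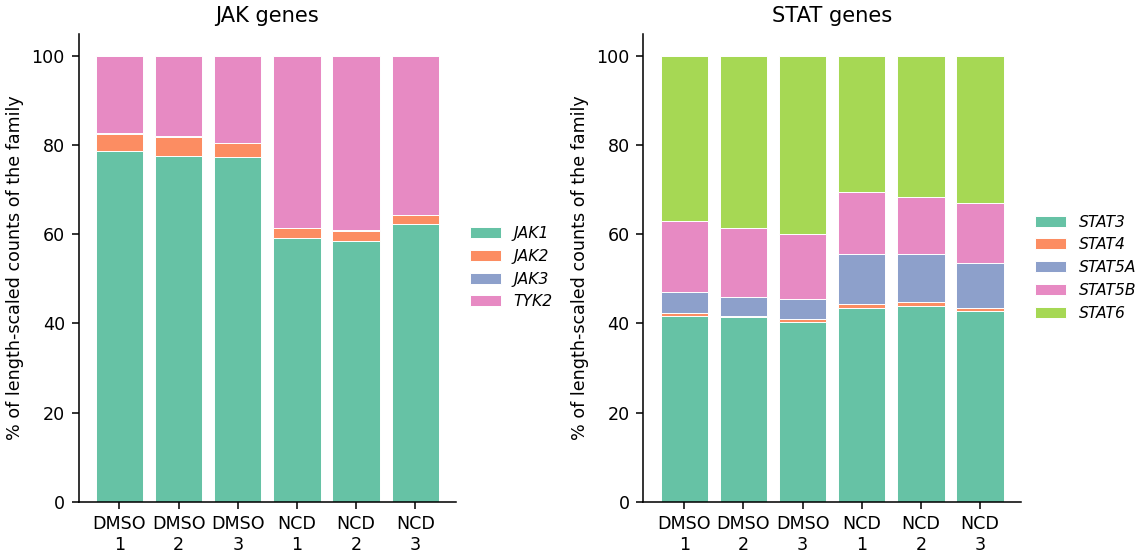
Share of each member in the summed length-scaled counts of its family (4 JAK genes, left, and the 5 STAT genes examined here, right), in percent, stacked for each of the 6 libraries. JAK3 and STAT4 are too small to see well. With NCD the share of JAK1 was 59.97% in place of 77.8%, and that of TYK2 37.8% in place of 18.3%.

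Shares within each family likewise need no scaling between libraries. JAK1 made up 77.8% ± 0.736 (SD, n = 3) of the JAK transcripts per length with DMSO and 59.97% ± 2.01 with NCD, a difference of -17.8 percentage points. TYK2 had the opposite difference, with 18.3% ± 1.09 and 37.8% ± 1.88, a difference of 19.5 points. JAK2 held 3.84% ± 0.554 and 2.17% ± 0.183, and JAK3 0.135% and 0.107%. Shares of a sum add up to the whole, so where JAK1, the main part, falls, a gene whose level changes little gains share. The level of TYK2 itself had a fold of only 1.21.

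Among the 5 STAT genes, STAT3 held 41.1% ± 0.690 with DMSO and 43.4% ± 0.628 with NCD, although the log2 fold change of its level was 0.00. STAT6 held 38.5% ± 1.38 and 31.8% ± 1.26, a difference of -6.75 points. STAT5A went from 4.53% ± 0.289 to 10.7% ± 0.544, a difference of 6.14 points, and STAT5B from 15.3% ± 0.665 to 13.3% ± 0.700. STAT4 stayed under 1% in every library. For 8 of the 9 shares the libraries of the groups did not overlap, and the exact permutation p was 0.1, the smallest possible (0.113 after adjustment over the 9 shares). The exception was JAK3, with an exact permutation p of 1.0.

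Each gene was then set against its span, the genomic distance from its start to its end. In these libraries the log2 fold change of genes differed with span. In 20 bins of span, the median reached 0.47 between 13.2 and 16.4 kb and was down at -2.82 above 239 kb. For each member, the 500 tested genes nearest in span were taken as a description of genes of that size, with no test.

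**Figure D4:**
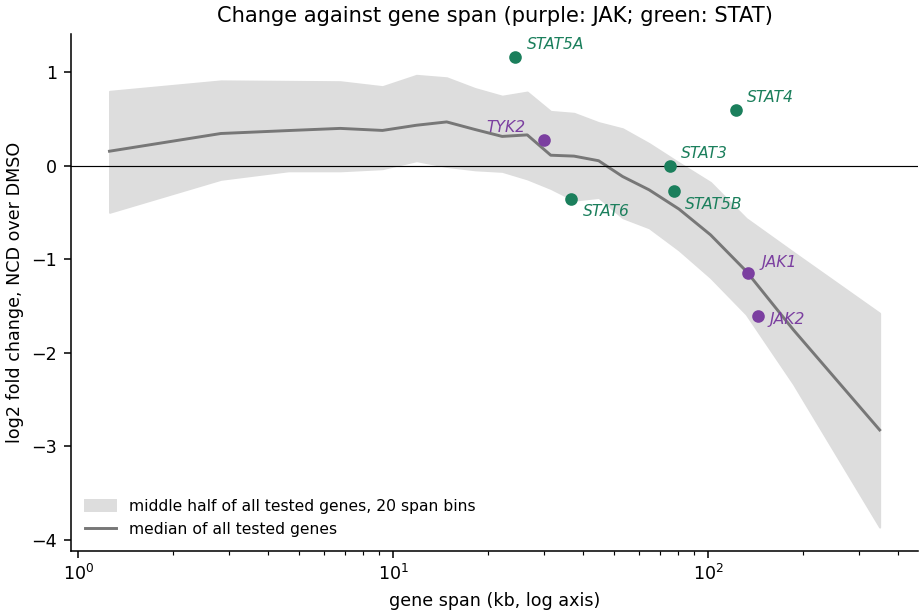
Log2 fold change, NCD over DMSO, against gene span in kb on a log axis. The line and the grey band are the median and the interquartile range of all tested genes in 20 span bins, and points are the 8 tested members. JAK1 lies on the line and JAK2 below it inside the band, while STAT5A and STAT4 lie above the band.

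JAK1 and JAK2 are long genes, of 133.3 and 143.8 kb. Genes of the span of JAK1 had a median log2 fold change of -1.13, and JAK1 at -1.15 was at percentile 49.4 among them. For JAK2 the neighbours' median was -1.27, and JAK2 at -1.61 was at percentile 29. Of the neighbours, 58.2% for JAK1 and 63.6% for JAK2 were lower past both thresholds. With these spans the fall of either kinase was within the usual range of genes of its length in these libraries. RefSeq also lists a JAK1 promoter window at 65067697 to 65067996, beyond the span used. A start there puts JAK1 in the bin of 153 to 239 kb, inside its interquartile range of -2.33 to -0.92. A further JAK2 window, at 5041282 to 5041581, lies inside the span used. A start there puts JAK2 in the bin of 72.2 to 89.7 kb, below its interquartile range of -0.90 to 0.03. The place of JAK2 thus depends on the start used.

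TYK2 (30.1 kb) at 0.28 was near its neighbours' median of 0.14, at percentile 57.8. STAT5B (77.5 kb) at -0.27 was at percentile 59.2 of neighbours with a median of -0.44. STAT3 (75.2 kb) at 0.00 lay 0.45 above a neighbours' median of -0.44, at percentile 71.4. STAT3 thus had no shift where most genes of its length were lower, still inside their interquartile range of -0.86 to 0.09.

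STAT4 and STAT5A lay above the interquartile range of genes of their length. STAT4 (122.0 kb) at 0.60 was at percentile 95.4 of neighbours with a median of -1.03, though its own change did not pass the test. STAT5A (24.4 kb) at 1.16 was at percentile 86.8 of neighbours with a median of 0.33. STAT6 (36.7 kb) at -0.35 was at percentile 25.6 of neighbours with a median of 0.12, just inside their interquartile range of -0.37 to 0.59. The RefSeq promoter window of STAT6, at 57110240 to 57110539, lies inside this span. A start in that window puts STAT6 in the bin of 13.2 to 16.4 kb, with an interquartile range of -0.01 to 0.94. STAT6 lies below that range, so its place among genes of its length depends on the start used.

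STAT2, which acts downstream of type I interferon and is not among the 9 genes, rose from 41.5 ± 5.53 to 122 ± 8.15 CPM (log2 fold change 1.55, edgeR adjusted p = 1.24e-06).

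The rest of the pathway was described with lists by role, in which 14 of 125 genes stand in more than 1 list. The lists are described by counts and medians, to be read against the 69.3% of all tested genes past the test and the all-gene median of 0.04. No list was tested as a set, and each gene said to have risen or fallen passed the edgeR test on its own. Falls past both thresholds include LEPR (221 kb), PIAS1 (144 kb) and SOS1 (143 kb), inside the interquartile range of their span bin. The other named falls past both thresholds, among them BCL2 (197 kb), PIAS2 (117 kb) and ID1 (1.23 kb), lie below theirs. Named rises past both thresholds have spans from 1.82 kb (JUNB) to 53.4 kb (SOCS7). The part of span in these changes was not tested.

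**Figure D5:**
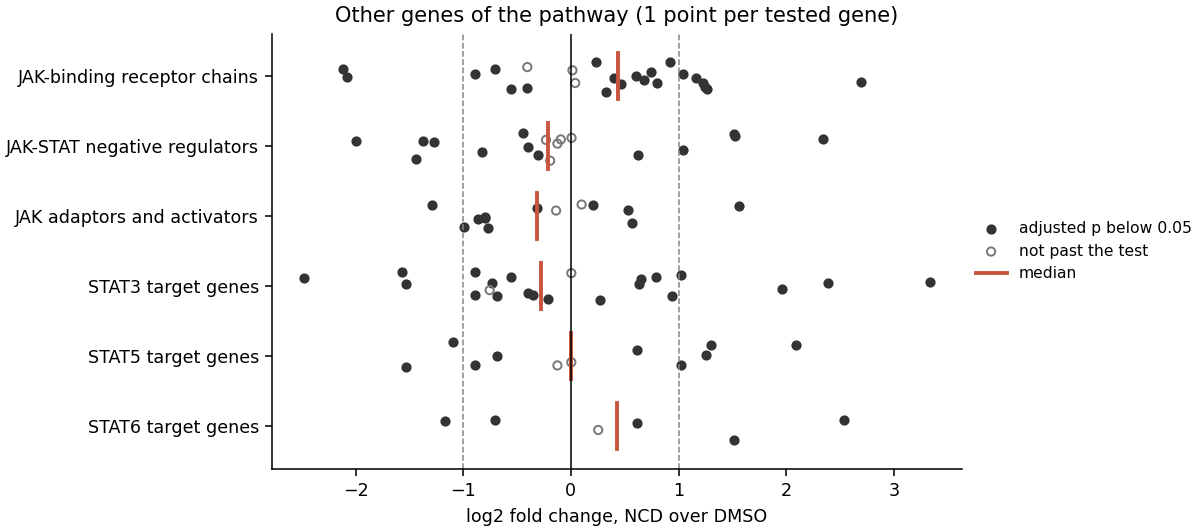
Log2 fold change, NCD over DMSO, of the tested genes in 6 lists of the JAK-STAT pathway. Filled points passed an adjusted p of 0.05, open points did not, red bars are list medians and dashed lines the fold threshold. Each list has genes on both sides, with medians from -0.31 for adaptors to 0.44 for receptor chains.

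Of 40 chains of receptors that signal through JAKs, not all of which bind a JAK themselves, 24 were tested. Of these 15 rose, 6 fell and 3 did not pass, with a median of 0.44. CSF2RA, the alpha chain of the GM-CSF receptor, rose from 6.22 ± 0.989 to 13.9 ± 1.59 CPM (log2 fold change 1.16), and EPOR, the erythropoietin receptor, from 5.62 ± 0.445 to 11.6 ± 0.631 CPM (1.04). CSF2RA lies in a pseudoautosomal region, so that reads can match more than 1 copy and its count is uncertain. LEPR, the leptin receptor, fell from 10.4 ± 0.842 to 2.44 ± 0.354 CPM (-2.08). The 5 tested chains that bind interleukin 6, interleukin 11, oncostatin M or LIF, chosen after their values were seen, went both ways. OSMR fell from 125 ± 10.7 to 67.1 ± 4.05 CPM (-0.90), and the shared chain IL6ST from 250 ± 49.9 to 170 ± 54.8 CPM (-0.56, edgeR adjusted p = 0.0427), with libraries that overlapped. IL6R rose from 7.96 ± 1.41 to 11.04 ± 0.686 CPM (0.47) and IL11RA from 1.45 ± 0.169 to 3.50 ± 0.396 CPM (1.27), and LIFR did not pass the test (-0.40, edgeR adjusted p = 0.0624).

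Of 21 negative regulators 18 were tested, and 5 rose, 8 fell and 5 did not pass, with a median of -0.21. PTPN1, a phosphatase of JAK2 and TYK2, fell from 168 ± 6.43 to 69.6 ± 1.13 CPM (log2 fold change -1.27), DUSP3 from 96.4 ± 6.21 to 37.2 ± 2.13 CPM (-1.38), PIAS1 from 43.7 ± 4.09 to 16.1 ± 1.48 CPM (-1.44) and PIAS2 from 15.9 ± 2.62 to 3.97 ± 1.17 CPM (-1.99). USP18, which blocks interferon receptor signaling, rose from 4.24 ± 0.462 to 12.2 ± 1.71 CPM (1.52), and SOCS7 from 18.3 ± 1.25 to 37.7 ± 2.29 CPM (1.04). SOCS3, the feedback inhibitor induced by STAT3, fell from 38.6 ± 2.47 to 29.3 ± 0.194 CPM (-0.40), while the phosphatase PTPN6 (2.34, at 1.76 ± 0.461 CPM with NCD) and the SUMO ligase PIAS4 (0.62) rose. These last genes were chosen after their values were seen.

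All 13 adaptors and activators were tested, and 4 rose, 7 fell and 2 did not pass, with a median of -0.31. SOS1, the exchange factor that links receptors to RAS, was the named fall, from 51.7 ± 8.88 to 21.1 ± 4.07 CPM (log2 fold change -1.29). Among genes chosen after their values were seen, the adaptor GRB2 (-0.77) and the phosphatase PTPN11 (-0.80) fell, while the adaptors SH2B2 (1.56, at 3.89 ± 0.283 CPM with NCD), SHC1 (0.57) and IRS2 (0.53) rose.

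Of 30 genes listed as STAT3 targets 22 were tested, and 9 rose, 11 fell and 2 did not pass, with a median of -0.28. The changes went both ways and were large in each direction. IL6, the cytokine upstream of STAT3, rose from 4.32 ± 0.625 to 43.7 ± 2.61 CPM (log2 fold change 3.34), JUNB from 8.58 ± 0.282 to 33.4 ± 3.46 CPM (1.96) and PIM1 from 29.9 ± 2.11 to 60.7 ± 0.544 CPM (1.02). The survival genes BCL2 and BCL2L1 fell from 15.2 ± 2.25 to 2.71 ± 0.275 CPM (-2.48) and from 359 ± 7.78 to 124 ± 3.86 CPM (-1.53), and HIF1A from 317 ± 32.7 to 107 ± 26.6 CPM (-1.57). MCL1, a survival gene of the same family chosen after its values were seen, was at 524 ± 7.35 and 525 ± 23.4 CPM (0.00). The list thus had members on both sides, while the STAT3 transcript itself had a log2 fold change of 0.00.

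Of 17 genes listed as STAT5 targets 11 were tested, and 5 rose, 4 fell and 2 did not pass, with a median of 0.00. CCND2, a cyclin, rose from 3.82 ± 0.982 to 16.3 ± 0.284 CPM (log2 fold change 2.09) and the kinase PIM2 from 11.6 ± 1.32 to 28.5 ± 2.10 CPM (1.30), whereas ID1 fell from 63.1 ± 5.12 to 29.6 ± 3.88 CPM (-1.09). PIM1 (1.02) and BCL2L1 (-1.53, the largest fall here), given above as STAT3 targets, stand in this list too. Of 17 genes listed as STAT6 targets only 6 were tested, 3 rose, 2 fell and 1 did not pass, with a median of 0.43. TGM2, a transglutaminase, was the named fall, from 476 ± 20.4 to 212 ± 9.50 CPM (-1.17). The rises were BCL6 (0.61), below the fold threshold, and SOCS1 (1.52) and CCL26 (2.53), both under 5 CPM.

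Genes with the most similar profile were sought for JAK2 and STAT3, as the smallest root mean square distance of centred log2 CPM over the 6 libraries among about 11050 genes of at least 5 CPM. For JAK2 they were KIF13B (distance 0.07, log2 fold change -1.55), AMBRA1 (0.11, -1.76) and WWTR1 (0.12, -1.62). All of these are long genes, with spans of 196 to 219 kb. For STAT3 they were RRP1B, CCNK and MFN2, each at a distance of 0.02 and a log2 fold change from 0.02 to 0.03.

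Promoter windows from RefSeq (GRCh38.p14), from 250 bases before to 50 bases after the start, were found for 9 of the 9 genes. On both strands, the STAT site TTCNNNGAA occurred in none of them (7.66% of 35116 windows hold it), nor did the interferon-stimulated response element, searched as GAAA, any 2 bases and GAAA again (3.57%) or the TATA box TATAAA (11.5%). This says only that these letters are absent from these windows.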

How the data were processed

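RNA-seq libraries of MDA-MB-231 cells (3 NCD, 3 DMSO) were analysed from the deposited expected counts per Ensembl gene, which the authors made with HISAT2 and RSEM for each library on its own, without normalization. The submitters' notes list GRCh38 and hg38. The annotation release and the strand setting are not given in the sources used here. In each library 25 lines without a gene or count were skipped. Groups were taken from the titles.

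Expected counts were rounded, filtered with filterByExpr, scaled by TMM (factors 0.911 to 0.949 with DMSO, 1.059 to 1.092 with NCD) and tested with glmQLFit and glmQLFTest of edgeR 4.0.16 in R 4.3.3, with Benjamini-Hochberg adjustment. Standard errors are the size of the log2 fold change over the square root of F, and CPM uses the TMM-scaled library sizes. The fold threshold follows the study's methods. No pair of libraries in a group agreed within sampling noise (chi-square per degree of freedom 2.05 or more). The lowest value was that of NCD libraries 1 and 2, while NCD library 3 was at 14.4 and 12.9 against them. The DMSO pairs were at 4.17 to 15.4. The code was tested on simulated data. Spans, exons and coding sequences came from GENCODE 29, symbols for 62666 of 63241 identifiers from a gene name table, and promoters from RefSeq. Permutation tests used scipy 1.17.1. Totals of 18223594 to 21629653 counts leave genes of a few counts unmeasured, and intervals for counts cover counting error only.

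The members and gene lists were chosen with earlier results of these data known. Named genes were the 9 members, STAT2, up to 4 rises and 4 falls per list with the largest absolute log2 fold change among genes past both thresholds, with a mean of at least 5 CPM and no overlap between groups, and 3 genes nearest in profile to JAK2 and to STAT3. Exceptions are named in the text, and a gene that the rule covers is not reported here. Alternatives were DESeq2 1.42.0, limma-voom (limma 3.58.1), other scalings and filters, a replicate block, other span windows, other length scalings and each library left out.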

Additional observations from a re-analysis of the deposited data

How the results depend on the processing

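JAK1, JAK2 and STAT5A kept direction and test call under all 14 alternatives. With ribosomal protein genes as the reference 3 of the 8 genes passed the test, as TYK2, STAT5B and STAT6 did not. Leaving out 1 library left 4 to 6 past the test and 3 past the fold threshold. With library totals JAK1 missed the fold threshold, which left 2, and 56.2% of the differentially expressed genes were higher in place of 43.6%. STAT3, at 0.00, had a negative log2 fold change with DESeq2 (-0.017), DESeq2 size factors in edgeR (-0.017), the ribosomal protein reference (-0.0089) and at least 10 counts in every library (-0.013), and ran from -0.058 to 0.023 without 1 library (adjusted p 0.472 to 0.888). Its gap to genes of its span was 0.393 with 1000 neighbours and 0.395 to 0.521 without 1 library. The JAK3 share difference ran from -0.067 to 0.032 points without 1 library and turned positive without DMSO library 2, which held 10 of its 15 DMSO counts. The cause of these shifts was not tested. Same-numbered libraries showed no common deviation (correlations 0.216, -0.185 and 0.023). These 3 values cannot decide whether the numbers mark paired cultures, which the labels do not say. With the replicate number as a block 6 members passed the test, 3 of them past the fold threshold, and 4723 genes were differentially expressed in place of 4736. The depth limits JAK3 and STAT4, and 3 libraries per group limit every permutation test to p = 0.1.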
